A study of Mus musculus with 6 samples.

Results

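The 10 genes described here take part in sarcoplasmic reticulum (SR) calcium cycling in muscle. They are *Ryr2*, *Trdn*, *Jph2*, *Casq2*, *Casq1*, *Hrc*, *Atp2a2*, *Pln*, *Sln* and *Slc8a1*. They were chosen by function, by matching the Ensembl gene of each symbol in the GENCODE M21 annotation to the count table, and all 10 of them were found among its 54532 genes. In cardiomyocytes (CMs), each beat starts when calcium that enters through the surface membrane opens the ryanodine receptor, so that the SR empties its store onto the myofilaments. Relaxation follows when the SERCA pump returns calcium to the SR, under the brake of the small membrane peptides phospholamban and sarcolipin, and when the sodium-calcium exchanger expels the rest from the cell. Junctional proteins hold the release channel close to the surface membrane, and calsequestrin buffers the store.

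RNA was measured in CM nuclei of wildtype ICR mice that had received AAV9, a muscle-tropic viral vector, under the skin at P6 (postnatal day 6) at 1e+11 viral genomes per mouse. The vector carried GFP, YAP6SA or YAP5SA behind the cardiac troponin T promoter (cTnT), which drives expression in CMs, so the GFP control mice also carried the virus and the promoter. YAP5SA is the coactivator YAP with the serines that LATS kinases phosphorylate changed to alanine, and YAP6SA carries a further serine-to-alanine change in the region that binds TEAD transcription factors. Hearts were taken at P9, nuclei were pulled down with an antibody against PCM-1, which marks CM nuclei, and poly-A libraries that do not keep the strand were made of their RNA. There were 2 libraries per group, 1 in each of 2 batches as the labels number them, from 2 hearts per virus, and the labels do not say outright that each library is 1 heart. The p-values below therefore measure the spread between libraries.

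The 6 libraries held 14552847 to 19615627 counts on genes. Levels are given as CPM (gene counts per library size after TMM scaling), and the 2 values for a group are always those of batch 1 and batch 2, in that order. *Yap1*, the gene whose variants were delivered, stood at 139 and 130 CPM in GFP, 122 and 130 CPM in YAP6SA and 138 and 102 CPM in YAP5SA, so the delivered variants were not visible in its count. The labelled cell type was matched by its markers: the 6 CM markers (*Tnnt2*, *Myh6*, *Actn2*, *Ttn*, *Mybpc3* and *Tnni3*) summed to 31200 to 72900 CPM per library, against 435 to 645 CPM for 6 endothelial and 37.6 to 77.6 CPM for 4 macrophage markers. The 6 fibroblast markers summed to 828 to 1710 CPM.

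The small peptides that act on the SERCA pump are encoded by very short reading frames, and 3 of these are shown. The frame of *Pln* bears on what its counts can and cannot see. *Pln* encodes phospholamban and *Sln* sarcolipin, both inhibitors of the pump, and *Strit1* encodes DWORF, a peptide that raises pump activity. The coding sequences, cut from the GENCODE M21 transcripts of GRCm38 and written 5′ to 3′ with the start and stop codons in capitals, run over 52, 31 and 34 codons.
Pln (chr10:53343864-53344022, plus strand): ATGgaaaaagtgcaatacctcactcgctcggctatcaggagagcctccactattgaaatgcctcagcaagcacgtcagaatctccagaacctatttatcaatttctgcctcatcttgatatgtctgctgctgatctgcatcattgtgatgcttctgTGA
Sln (chr9:53853473-53853568, plus strand): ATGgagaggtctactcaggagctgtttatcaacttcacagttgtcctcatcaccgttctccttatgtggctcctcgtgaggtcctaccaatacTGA
Strit1 (chr3:63481290-63483827, minus strand): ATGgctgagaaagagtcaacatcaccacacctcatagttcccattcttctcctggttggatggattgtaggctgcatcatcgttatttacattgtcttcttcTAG

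Of the 2759 exon bases of *Pln*, 1644 (59.59%) lie under an exon of *Gm47644*, a noncoding gene on the opposite strand, and 141 more (5.11%) under *Cep85l*. The count table has a row for ambiguous reads, as STAR's gene counts do, which without strand leave out reads that touch exons of more than 1 gene. The counting options are not given in the sources used here. Under that rule, reads could be counted on 974 bases (35.3%) of *Pln*, and none of them is coding, since all 156 coding bases before the stop codon are shared, so that the *Pln* values below would come from its untranslated exon bases alone. The other members were less affected: *Casq1* shared 156 bases (8.0%) with the antisense gene *Gm17224*, *Atp2a2* shared 83 bases (1.36%) with *Gm43361* and *Slc8a1* shared 8 bases with *Gm11096*, while the other 6 shared none.

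*Atp2a2*, the SERCA pump, had the highest level per kb of exon of the 10 genes in every group. Dividing CPM by the length of all exons, the GFP libraries held 645 ± 81.3 CPM per kb (mean ± SD, n = 2) of *Atp2a2*, 296 ± 46.5 of *Casq2* and 193 ± 3.56 of *Pln*. Below them, on the same scale, stood *Jph2* at 144 ± 34.3, *Ryr2* at 64.2 ± 9.18, *Trdn* at 40.5 and 39.4 in its 2 libraries, and *Hrc* at 30.8 ± 6.38 CPM per kb. The lowest levels were those of *Casq1* at 22.7 ± 12.5, *Sln* at 12.9 ± 1.66 and *Slc8a1* at 4.02 ± 0.844 CPM per kb. Neighbours in this order did not overlap between libraries except *Hrc* with *Casq1* and *Casq1* with *Sln*. The place of *Pln* depended on the length used, because over its unshared bases alone it reached 547 ± 10.1 CPM per kb and ranked 2nd, above *Casq2*. By coding length, *Pln* stood above *Atp2a2* in every library (ratio 1.84 to 2.95). Under the rule above, however, none of the *Pln* bases counted would be coding.

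The order changed little in YAP6SA OE CMs and more in YAP5SA OE CMs. In YAP6SA, only *Hrc* (33.1 ± 4.95 CPM per kb) and *Trdn* (27.4 ± 4.45) changed places, and their libraries overlapped, as did those of *Pln* and *Jph2*. In YAP5SA, *Casq1* rose from rank 8 to rank 5 with 48.0 ± 2.38 CPM per kb, while *Ryr2* went from rank 5 to rank 7 with 37.6 ± 13.2. Overlapping neighbours in YAP5SA were *Jph2* with *Pln*, *Trdn* with *Ryr2* and *Hrc* with *Sln*.

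**Figure D1:**
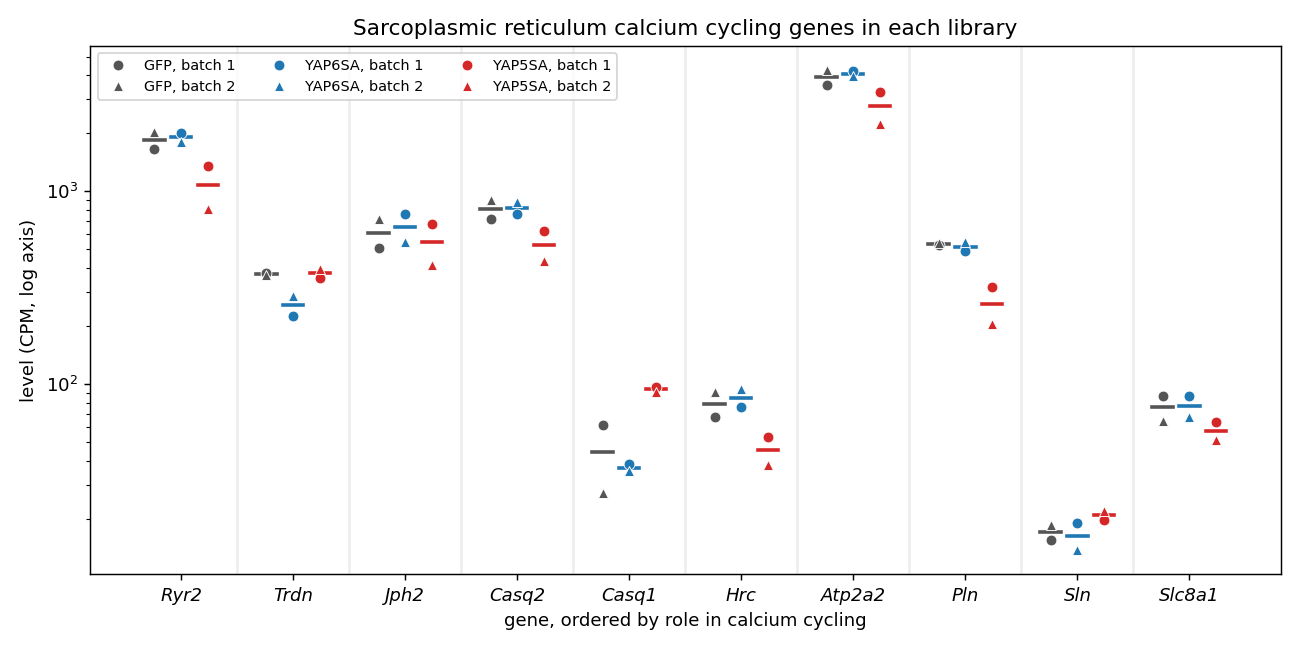
Level of the 10 SR calcium cycling genes in each library, in CPM on a log axis and not divided by gene length. Circles are batch 1, triangles batch 2 and bars the mean of 2 libraries. Both YAP5SA libraries lie below every GFP and YAP6SA library for *Ryr2*, *Casq2*, *Hrc*, *Atp2a2*, *Pln* and *Slc8a1* and above them for *Casq1* and *Sln*.

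The groups were tested pairwise in edgeR (quasi-likelihood fit with a batch term), and the FDR is the Benjamini-Hochberg value over the 13323 genes kept, which include all 10 members. The question was whether the calcium cycling genes respond to either YAP variant, and whether the added change in YAP6SA alters that response. In such bulk libraries, fewer CM nuclei and less RNA per nucleus cannot be told apart. Against GFP, YAP5SA OE CMs had 4 of the 10 members (40%) past an FDR of 0.05, with *Casq1* higher and *Ryr2*, *Pln* and *Hrc* lower, where 22.0% of all genes passed (12.8% higher and 9.18% lower). The median log2 fold change of the members was -0.46 and ran from -1.04 to 1.16, while the median of all genes was 0. The YAP5SA libraries lay wholly below GFP for 6 members and wholly above for 2, and over all genes 60.9% did not overlap in this comparison.

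In YAP6SA OE CMs, 0 of the 10 members passed against GFP with the edgeR quasi-likelihood test, where 0.0450% of all genes did. At an unadjusted p under 0.05 there was 1 member, *Trdn*, beside 5.93% of all genes. The likelihood ratio test, DESeq2 and limma-voom also called 0 members, beside 0.615%, 0.405% and 0.045% of all genes. With shares this small, 0 of 10 shows nothing particular to the calcium genes. The members' log2 fold changes ran from -0.56 to 0.11 with a median of 0.03. The YAP6SA libraries lay wholly below GFP for 1 member and wholly above for 0, and 34.3% of all genes did not overlap. Compared with YAP6SA directly, YAP5SA OE CMs had 5 of the 10 members (50%) past the threshold, *Casq1* and *Trdn* higher and *Ryr2*, *Pln* and *Hrc* lower, where 14.7% of all genes passed (9.0% higher and 5.68% lower). Here the members' median log2 fold change was -0.50, with 8 members and 30.8% of all genes at an unadjusted p under 0.05. The YAP5SA libraries lay wholly below those of YAP6SA for 6 members and wholly above for 3, and 57.6% of all genes did not overlap. A joint test for any difference among the 3 groups called *Casq1*, *Pln* and *Hrc*, at an FDR of 0.00765, 0.0136 and 0.0347 in edgeR, where 17.6% of all genes were called. The comparisons of YAP6SA and YAP5SA with GFP share the GFP libraries.

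The batches carried changes of unequal size. For 8 of the 10 members, the difference between YAP5SA and GFP was larger in batch 2 than in batch 1, and over all genes with counts in these libraries this was so for 68.3%. Its direction was the same in both batches for 8 of 10 members against GFP and for 10 of 10 against YAP6SA, where it was the same for 74.5% and 72.2% of all genes. Levels by batch are therefore given with each member.

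**Figure D2:**
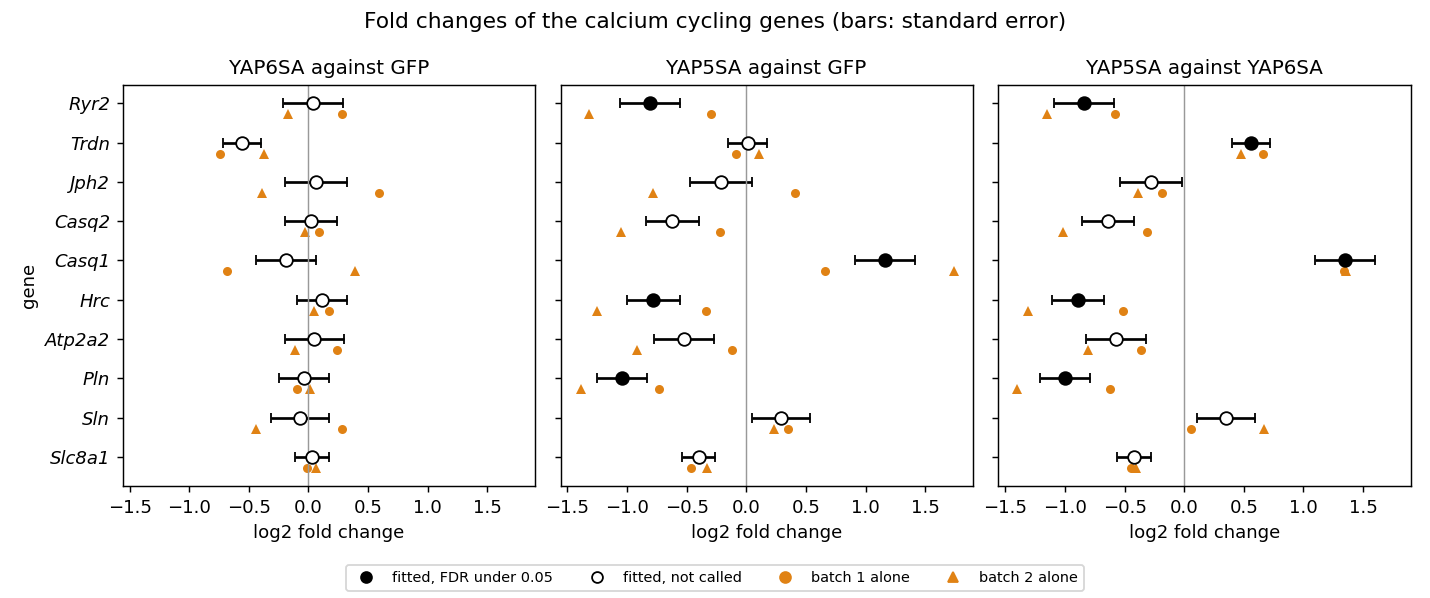
Log2 fold changes of the 10 genes in the 3 comparisons. Black circles are fitted values with their standard error, filled where the FDR is under 0.05, and orange marks below them are the differences within batch 1 (circle) and batch 2 (triangle). No circle is filled for YAP6SA against GFP, 4 are for YAP5SA against GFP and 5 for YAP5SA against YAP6SA.

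Calcium release was read from *Ryr2*, the cardiac ryanodine receptor (ENSMUSG00000021313, chromosome 13 of GRCm38, 11553102 to 12106945, minus strand). Its level was 1660 and 2030 CPM in GFP, 2020 and 1810 in YAP6SA, and 1350 and 814 in YAP5SA. Both YAP5SA libraries were below the other 4, and GFP and YAP6SA overlapped. *Ryr2* fell in YAP5SA OE CMs to 0.572 times its GFP level (log2 fold change -0.81, standard error 0.25, edgeR FDR 0.0455) and to 0.558 times its YAP6SA level (-0.84, FDR 0.0496). By batch, the log2 difference from GFP was -0.30 and -1.32. In YAP6SA it was 0.04 ± 0.25 (SE) from GFP (FDR 0.992). The call against GFP was lost without the batch term (FDR 0.074), in a fit of only the 4 libraries compared (0.0986), and when GFP replicate 2 (log2 fold change -0.43), YAP5SA replicate 2 (-0.40) or either YAP6SA library was left out. That against YAP6SA was lost without the batch term (FDR 0.0801), with DESeq2's size factors (0.0516), and without either YAP6SA library or YAP5SA replicate 2 (log2 fold change -0.46).

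*Trdn*, *Jph2* and their partners form the junction at which release takes place. *Trdn* encodes triadin, which anchors calsequestrin to the release channel (ENSMUSG00000019787, chromosome 10, 33080554 to 33476709, plus strand). Its level was 379 and 369 CPM in GFP, 226 and 285 in YAP6SA, and 357 and 397 in YAP5SA. The YAP6SA libraries lay below all the others, and GFP and YAP5SA overlapped. Between YAP6SA and GFP, 34.3% of all genes did not overlap either. In YAP6SA OE CMs the *Trdn* level was 0.68 times that in GFP (log2 fold change -0.56, SE 0.16, unadjusted p 0.00695), which did not pass the adjustment over all genes (edgeR FDR 0.592), and it was lower in both batches (-0.74 and -0.37). With the YAP5SA libraries out of the fit, the same fold change passed (-0.55, FDR 0.0199), as it did without YAP5SA replicate 1 (FDR 0.0319) or replicate 2 (FDR 0.0308). In these fits 2.07%, 1.55% and 1.60% of all genes passed, against 0.0450% with all 6 libraries. *Trdn* was 1.48 times as high in YAP5SA as in YAP6SA (log2 fold change 0.56, FDR 0.0459), and it was not shown to differ between YAP5SA and GFP (0.01 ± 0.16, FDR 0.983). The call between the YAP variants was lost without the batch term (FDR 0.0966), in the fit of only those 4 libraries (0.0595) and without any 1 of the GFP or YAP6SA libraries (0.0575 to 0.404).

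Junctophilin-2, the product of *Jph2* (ENSMUSG00000017817, chromosome 2, 163336242 to 163397993, minus strand), ties the SR to the surface membrane. The libraries held 508 and 715 CPM in GFP, 766 and 546 in YAP6SA and 673 and 416 in YAP5SA, and the 3 groups overlapped. Its log2 fold change was 0.06 ± 0.26 (SE) in YAP6SA and -0.21 ± 0.26 in YAP5SA against GFP (edgeR FDR 0.981 and 0.594), and the batches went in opposite directions in both comparisons (0.59 and -0.39, 0.41 and -0.78).

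Within the store, cardiac and skeletal calsequestrin had fold changes of opposite sign in YAP5SA. *Casq2*, the cardiac calsequestrin (ENSMUSG00000027861, chromosome 3, 102086415 to 102146514, plus strand), was read at 719 and 899 CPM in GFP, 767 and 878 in YAP6SA, and 619 and 435 in YAP5SA. The YAP5SA libraries were the lowest of the 6, the one in batch 2 by more. Its log2 fold change in YAP5SA was -0.62 ± 0.22 (SE) against GFP and -0.64 ± 0.22 against YAP6SA, neither past the threshold (edgeR FDR 0.0722 and 0.0799). YAP6SA was 0.02 ± 0.22 from GFP (FDR 0.995). The first of these was called with no filter on low counts (FDR 0.00233), by DESeq2 (0.0284), by the likelihood ratio test (0.0365) and by limma-voom (0.0479), and the second by the first 3 of these (0.0018, 0.0302 and 0.0353). Both were also called without YAP5SA replicate 1 (log2 fold change -1.01 and -1.04), where 36.5% and 31.2% of all genes passed.

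*Casq1*, the calsequestrin of skeletal muscle (ENSMUSG00000007122, chromosome 1, 172209894 to 172219868, minus strand), had the largest rise among the members. Its level was 61.5 and 27.0 CPM in GFP, 38.3 and 35.2 in YAP6SA, and 96.9 and 90.3 in YAP5SA. Both YAP5SA libraries were above the other 4, and the widest gap between replicates was in GFP. *Casq1* was 2.23 times as high in YAP5SA as in GFP (log2 fold change 1.16, SE 0.25, edgeR FDR 0.0107, 0.66 and 1.74 by batch) and 2.55 times as high as in YAP6SA (1.35, FDR 0.00733, 1.34 and 1.36 by batch). YAP6SA was -0.19 ± 0.25 (SE) from GFP (FDR 0.942). Without GFP replicate 2 the first call was lost (log2 fold change 0.66, FDR 0.138), while the second was kept in 6 of 6 fits that left out a library.

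Beside the rise of *Casq1*, other skeletal muscle genes were uneven. The 11 skeletal muscle markers summed to 4.63 to 6.66 CPM in the GFP and YAP6SA libraries and to 40.2 and 93.8 CPM in YAP5SA, mostly through *Myh1* (8.41 and 28.0 CPM) and *Myh2* (23.0 and 58.3 CPM), fast skeletal myosins at 0 counts in all GFP and YAP6SA libraries. *Myh4*, *Tnnc2* and *Myod1* were at 0 in all 6 libraries, and *Myog* had 19 and 52 counts in YAP5SA and 0 elsewhere. The part of other muscle cells in the *Casq1* result was not tested. *Ryr1*, the skeletal ryanodine receptor, had 1 to 3 counts per library, where a count of 0 would allow up to 3. *Atp2a1*, the skeletal SERCA pump, had 22 and 12 counts in GFP, 11 and 14 in YAP6SA, and 27 and 26 in YAP5SA, the highest of the 6 libraries. It was under the filter on low counts, and in a fit of all genes its log2 fold change against GFP was 0.73 ± 0.74 (SE, edgeR FDR 0.793).

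*Hrc* encodes the histidine-rich calcium binding protein of the SR lumen (ENSMUSG00000038239, chromosome 7, 45335290 to 45338974, plus strand). Its libraries held 67.4 and 90.6 CPM in GFP, 76.1 and 94.0 in YAP6SA, and 53.3 and 38.0 in YAP5SA. The YAP5SA libraries were the lowest of the 6. *Hrc* fell in YAP5SA OE CMs to 0.583 times its GFP level (log2 fold change -0.78, SE 0.22, edgeR FDR 0.0291, -0.34 and -1.25 by batch) and to 0.541 times its YAP6SA level (-0.89, FDR 0.0235). It was 0.11 ± 0.21 (SE) from GFP in YAP6SA (FDR 0.954). The call against GFP was lost without GFP replicate 2 (log2 fold change -0.53, FDR 0.301) or YAP5SA replicate 2 (-0.35, FDR 0.192), and the one against YAP6SA without YAP6SA replicate 2 (-0.73, FDR 0.216) or YAP5SA replicate 2 (-0.47, FDR 0.101).

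Reuptake rests on *Atp2a2*, which encodes SERCA2 (ENSMUSG00000029467, chromosome 5, 122453513 to 122502225, minus strand). Per library, the pump gene reached 3570 and 4270 CPM in GFP, 4210 and 3950 in YAP6SA, and 3290 and 2250 in YAP5SA. Both YAP5SA libraries were below the rest, the one in batch 1 by little. The log2 fold change of *Atp2a2* in YAP5SA was -0.52 ± 0.25 (SE) against GFP and -0.57 ± 0.25 against YAP6SA, and neither passed (edgeR FDR 0.163 and 0.152). In YAP6SA it was 0.05 ± 0.25 from GFP (FDR 0.986). By batch the difference from GFP was -0.12 and -0.92. With each library left out in turn, the fitted value against GFP ran from -0.83 (without YAP5SA replicate 1) to -0.19.

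*Pln*, the main inhibitor of that pump in the ventricle (ENSMUSG00000038583, chromosome 10, 53337667 to 53345987, plus strand), fell the most of the 10. The libraries held 525 and 539 CPM in GFP, 489 and 544 in YAP6SA, and 317 and 206 in YAP5SA. The YAP5SA libraries were far below the other 4, which lay close together. *Pln* fell to 0.486 times its GFP level (log2 fold change -1.04, SE 0.21, edgeR FDR 0.00784, -0.73 and -1.39 by batch) and to 0.501 times its YAP6SA level (FDR 0.0127). In YAP6SA it was -0.04 ± 0.21 (SE) from GFP (FDR 0.986). The call against GFP was lost without GFP replicate 2 (log2 fold change -0.91, FDR 0.0749) and the one against YAP6SA without YAP6SA replicate 2 (-0.78, FDR 0.226).

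The genes that share bases with *Pln* were read separately. *Gm47644* was at 45.7 and 46.9 CPM in GFP, 63.0 and 59.6 in YAP6SA, and 40.1 and 24.8 in YAP5SA. Its log2 fold change in YAP5SA had the sign of that of *Pln*, at -0.54 against GFP (edgeR FDR 0.0785) and -0.94 against YAP6SA (FDR 0.0134). On the bases that both genes share, their reads cannot be told apart without strand. *Cep85l* was at 24.7 to 28.6 CPM in GFP and YAP6SA and at 34.2 and 39.5 CPM in YAP5SA. Its log2 fold change in YAP5SA against GFP was 0.51 (edgeR FDR 0.0674), of opposite sign to that of *Pln*.

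*Sln*, the sarcolipin gene (ENSMUSG00000042045, chromosome 9, 53850164 to 53854560, plus strand), is known in the mouse heart for its expression in the atria. Its level came to 15.5 and 18.6 CPM in GFP, 18.9 and 13.7 in YAP6SA, and 19.7 and 21.9 in YAP5SA, from 226 to 390 counts per library. The YAP5SA libraries were the highest by a small margin. Neither its log2 fold change against GFP (0.29 ± 0.24, SE) nor that against YAP6SA (0.35 ± 0.24) passed (edgeR FDR 0.425 and 0.359), and YAP6SA was -0.07 ± 0.24 from GFP (FDR 0.978). Among 6 atrial CM markers, *Myl7*, *Myl4*, *Nppa* and *Bmp10* rose in YAP5SA against GFP and *Sbk2* fell, and the list summed to 490 and 407 CPM in GFP, 551 and 500 in YAP6SA, and 703 and 713 in YAP5SA. The share of atrial CMs among the nuclei was not tested.

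Extrusion was read from *Slc8a1*, the sodium-calcium exchanger NCX1 (ENSMUSG00000054640, chromosome 17, 81373105 to 81738377, minus strand). The exchanger stood at 86.9 and 64.4 CPM in GFP, 86.4 and 67.4 in YAP6SA, and 63.3 and 51.2 in YAP5SA. Batch 1 was higher than batch 2 in each group, and within each batch YAP5SA was the lowest. The log2 fold change in YAP5SA was -0.40 ± 0.14 (SE) against GFP, with -0.46 and -0.33 by batch, and -0.42 ± 0.14 against YAP6SA, neither past the threshold (edgeR FDR 0.0769 and 0.0791). The difference between YAP6SA and GFP was 0.03 ± 0.14 (FDR 0.988).

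The fall of *Ryr2*, *Pln* and *Hrc* in YAP5SA stood beside lower summed levels of CM markers in the same libraries. The 6 CM markers summed to 54000 and 72900 CPM in GFP, 49200 and 65900 in YAP6SA, and 43400 and 31200 in YAP5SA, and their median log2 fold change in YAP5SA was -0.76 against GFP. None of the 6 passed the edgeR test on its own, with *Ttn* lowest at FDR 0.0516 and 4 of them at an unadjusted p under 0.05. *Irx4*, 1 of 4 ventricular markers and a transcription factor of that chamber, fell from 355 and 391 CPM in GFP to 195 and 129 CPM in YAP5SA, and the other 3 were not called. Of the fibroblast and endothelial markers none was called, and they summed to 1440 and 871 CPM and to 564 and 443 CPM in YAP5SA, against 1320 and 828 CPM and 553 and 435 CPM in GFP. The 5 smooth muscle and mural markers summed to 376 and 214 CPM in GFP, 1680 and 1340 in YAP6SA, and 1960 and 1450 in YAP5SA. The rise came through *Acta2* (272 and 142, 1560 and 1260, 1840 and 1350 CPM). *Myh11*, the smooth muscle myosin on that list, was at 6.07 to 14.2 CPM in GFP and YAP6SA and at 21.3 and 16.5 CPM in YAP5SA, and it rose in YAP5SA against GFP (2.0-fold, edgeR FDR 0.0274) and against YAP6SA (1.89-fold, FDR 0.0476). *C1qa*, a complement gene among the macrophage markers, rose 1.95-fold in YAP5SA against GFP (FDR 0.0228). Its libraries overlapped, at 6.68 and 13.6 CPM in GFP and 12.9 and 26.9 in YAP5SA. The macrophage markers *Csf1r* and *Cd68* were not called (FDR 0.261 and 0.667), and *Adgre1* was under the filter on low counts. The part of the share of CMs or other cells in the fall of *Pln*, *Hrc* and *Ryr2* was not tested.

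Ratios between members within a library do not depend on how libraries were scaled. *Pln* to *Atp2a2*, the inhibitor against its pump, was 0.324 and 0.278 in GFP per length of all exons, 0.256 and 0.303 in YAP6SA, and 0.213 and 0.202 in YAP5SA. The YAP5SA ratios were the lowest, at 0.69 times GFP (0.656 and 0.726 by batch) and 0.744 times YAP6SA. *Sln* to *Pln* was 0.0618 and 0.0722 in GFP, 0.0808 and 0.0528 in YAP6SA, and 0.13 and 0.222 in YAP5SA, which was 2.54 times GFP.

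*Casq1* to *Casq2*, the skeletal against the cardiac calsequestrin, was 0.12 and 0.0421 in GFP, 0.0701 and 0.0562 in YAP6SA, and 0.22 and 0.292 in YAP5SA. Its YAP5SA values were above all the others, at 3.56 times GFP, though by batch the ratio was 1.83 and 6.93 times as high. *Slc8a1* to *Atp2a2*, extrusion against reuptake, overlapped among the groups (1.09 times GFP in YAP5SA, 0.79 and 1.51 by batch). With 2 libraries against 2, an exact permutation test cannot give a p under 0.333, and no test was run on the ratios. On the unshared bases the *Pln* to *Atp2a2* ratio was higher, at 0.842 ± 0.0908 (SD, n = 2) in GFP and 0.579 ± 0.0213 in YAP5SA. The fold between groups is the same by construction, since the gene lengths cancel.

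**Figure D3:**
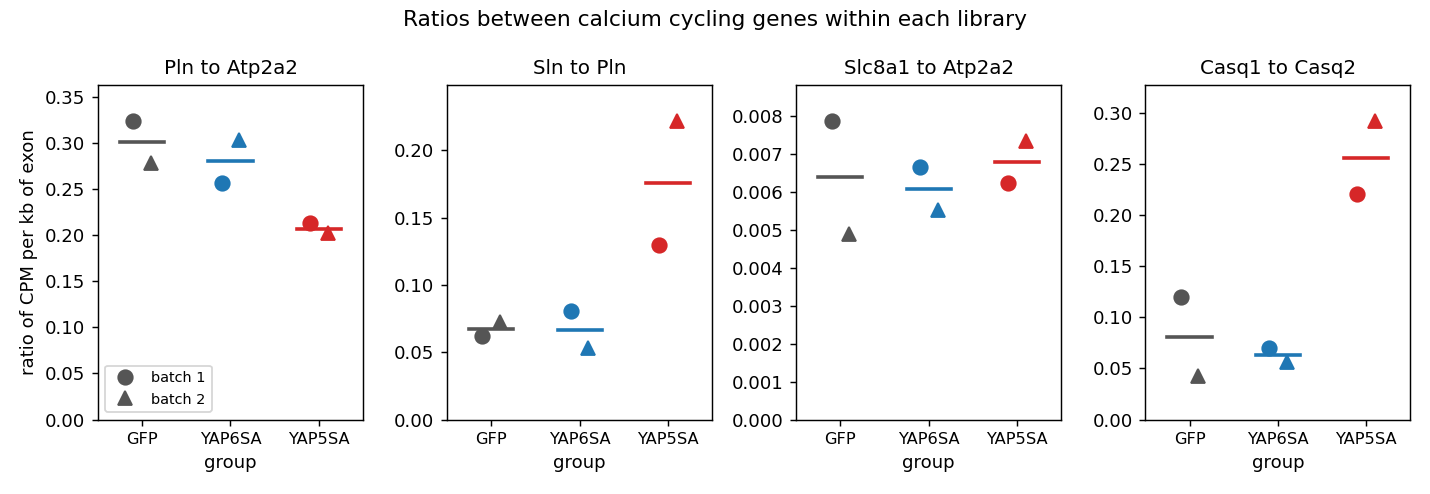
Ratios of CPM per kb of exon between members in each library, on axes that start at 0. Circles are batch 1, triangles batch 2 and bars the mean of 2 libraries. *Pln* to *Atp2a2* is lowest in YAP5SA (0.213 and 0.202), *Sln* to *Pln* and *Casq1* to *Casq2* are highest there, and *Slc8a1* to *Atp2a2* overlaps among the groups.

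The sequence before the start of the members was searched for motifs, as a description of the genes. RefSeq promoters of GRCm38.p6 were on hand for 7 of the 10 members, in 8 windows because *Jph2* had 2 of them, and *Atp2a2*, *Sln* and *Trdn* had none. Shown are the 250 bases before the RefSeq start of *Pln*, *Hrc* and *Ryr2*, which fell in YAP5SA, of *Casq1*, which rose, and of *Casq2*. They are written 5′ to 3′ along the gene, and capitals mark the 1 MEF2 site found.
Pln (chr10:53337436-53337685, plus strand): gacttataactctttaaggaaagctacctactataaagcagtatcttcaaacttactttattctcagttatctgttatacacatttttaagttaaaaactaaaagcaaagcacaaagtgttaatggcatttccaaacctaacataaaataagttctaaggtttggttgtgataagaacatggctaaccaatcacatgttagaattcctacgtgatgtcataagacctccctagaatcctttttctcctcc
Hrc (chr7:45335019-45335268, plus strand): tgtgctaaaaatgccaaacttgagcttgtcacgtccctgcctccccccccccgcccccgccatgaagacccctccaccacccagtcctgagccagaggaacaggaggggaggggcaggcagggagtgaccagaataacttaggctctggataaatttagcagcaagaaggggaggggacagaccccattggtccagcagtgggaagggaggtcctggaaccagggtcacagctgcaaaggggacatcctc
Ryr2 (chr13:12106946-12107195, minus strand): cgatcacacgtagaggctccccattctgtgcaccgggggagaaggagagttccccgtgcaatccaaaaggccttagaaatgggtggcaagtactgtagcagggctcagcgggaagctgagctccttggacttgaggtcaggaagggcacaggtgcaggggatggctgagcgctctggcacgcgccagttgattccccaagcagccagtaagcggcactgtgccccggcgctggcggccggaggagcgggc
Casq1 (chr1:172219896-172220145, minus strand): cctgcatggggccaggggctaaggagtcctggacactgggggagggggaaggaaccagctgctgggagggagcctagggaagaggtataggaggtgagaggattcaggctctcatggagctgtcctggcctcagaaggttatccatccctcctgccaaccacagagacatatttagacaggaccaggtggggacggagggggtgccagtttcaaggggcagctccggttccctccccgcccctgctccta
Casq2 (chr3:102086165-102086414, plus strand): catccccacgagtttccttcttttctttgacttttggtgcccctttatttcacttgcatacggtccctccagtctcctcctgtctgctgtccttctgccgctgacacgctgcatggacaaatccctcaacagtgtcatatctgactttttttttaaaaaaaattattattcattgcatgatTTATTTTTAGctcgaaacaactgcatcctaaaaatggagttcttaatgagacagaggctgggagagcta

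The TEAD motif CATTCC, searched on both strands, was in 0 of the 8 windows, against 12.6% of the 32851 promoters of the same length. These letters were thus not in the windows, which says nothing of sites elsewhere. The E-box CANNTG was in 8 of 8 windows and in 66.2% of all promoters. The 2 windows of *Jph2* overlap, and their E-box, 29 and 9 bases before the starts, is the same site counted in each. A CArG box, the motif of SRF, was in 0 of 8 and in 1.47% of all, and a MEF2 site was in 1 of 8, that of *Casq2* at 69 bases before the start, and in 2.92% of all. Each motif was counted on its own, whether or not it overlapped another.

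Another 48 genes of calcium handling were listed around the members, and 39 of them were kept for testing. Against GFP, YAP5SA OE CMs had 11 of the 39 (28.2%) past the threshold, 6 higher and 5 lower, beside the 22.0% of all genes, and the median log2 fold change of the list was 0.11. YAP6SA OE CMs had 0 of 39 with the edgeR quasi-likelihood test, beside 0.0450% of all genes. The likelihood ratio test, DESeq2 and limma-voom also called 0, beside 0.615%, 0.405% and 0.045% of all genes. At an unadjusted p under 0.05 there were 4 (beside 5.93% of all genes), among them *Calm3*, *S100a1* and *Slc8a2*. Between the YAP variants, 7 of 39 (17.9%) passed, 3 higher and 4 lower in YAP5SA, beside the 14.7% of all genes.

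Of the 5 genes that fell in YAP5SA against GFP, *Asph* fell the most. This gene, whose locus encodes the junctional protein junctin besides aspartate beta-hydroxylase, was read at 641 and 608 CPM in GFP, 687 and 609 in YAP6SA, and 358 and 166 in YAP5SA. It fell to 0.397 times its GFP level (log2 fold change -1.33, SE 0.25, edgeR FDR 0.00559). *Speg*, a striated muscle kinase of the junctional membrane, was read at 2680 and 2850 CPM in GFP, 2680 and 2400 in YAP6SA, and 1700 and 1090 in YAP5SA, a log2 fold change of -1.01 against GFP (FDR 0.0137). *Tmem38a*, the potassium channel TRIC-A of the SR, and *Srl*, which encodes sarcalumenin of the SR lumen, had log2 fold changes of -0.91 and -0.80 (FDR 0.0447 and 0.0457). Most of both came from batch 2, with -0.20 and -1.64 by batch for *Tmem38a* and -0.21 and -1.38 for *Srl*. Neither call was kept without the batch term (FDR 0.117 and 0.253). *Itpr2*, an inositol trisphosphate receptor, was at -0.95 (FDR 0.0174, -0.39 and -1.51 by batch). Against YAP6SA, *Asph* (-1.38), *Srl* (-1.10), *Tmem38a* (-1.02) and *Speg* (-0.88) also fell, and *Itpr2* was at -0.61 (FDR 0.103).

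Those that rose in YAP5SA against GFP were another ryanodine receptor and regulators. *Ryr3*, the receptor form found in several tissues at low levels, was read at 8.20 and 11.4 CPM in GFP, 9.36 and 8.06 in YAP6SA, and 17.3 and 25.6 in YAP5SA. It was 2.18 times as high in YAP5SA as in GFP (log2 fold change 1.13, SE 0.27, edgeR FDR 0.0157), opposite in sign to *Ryr2*. *Calm3*, a gene of the calcium sensor calmodulin, had a log2 fold change of 1.02 (FDR 0.0108). *Camk2a*, a subunit of the calmodulin-dependent kinase, was at 0.70 (FDR 0.0104), *Ppp1cb*, a catalytic subunit of protein phosphatase 1, at 0.60 (FDR 0.0363) and *Akap6*, an anchor of protein kinase A at the nuclear envelope, at 0.51 (FDR 0.0341). Against YAP6SA, *Ryr3* (1.26), *Camk2a* (0.72) and *Calr*, which encodes the calcium-binding chaperone calreticulin (0.50, FDR 0.0449), rose. *Calm3* was at 0.53 (FDR 0.132), not past the threshold. The *Calr* libraries overlapped (155 and 245 CPM in YAP5SA, 114 and 167 in YAP6SA). Its call was lost without the batch term (FDR 0.266) and with only the 4 libraries compared (0.0778). That of *Akap6* against GFP was lost in the same fits (FDR 0.0575 and 0.0609), and that of *Ppp1cb* without the batch term (0.0921). Part of the exon bases of *Asph* (14.3%, with *Clvs1*) and *Ppp1cb* (17.48%, with *Gm43312*) were shared with another gene. Without GFP replicate 2, 0 of the 39 and 5.54% of all genes passed against GFP, and without YAP6SA replicate 2, 0 and 2.97% passed between the variants.

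**Figure D4:**
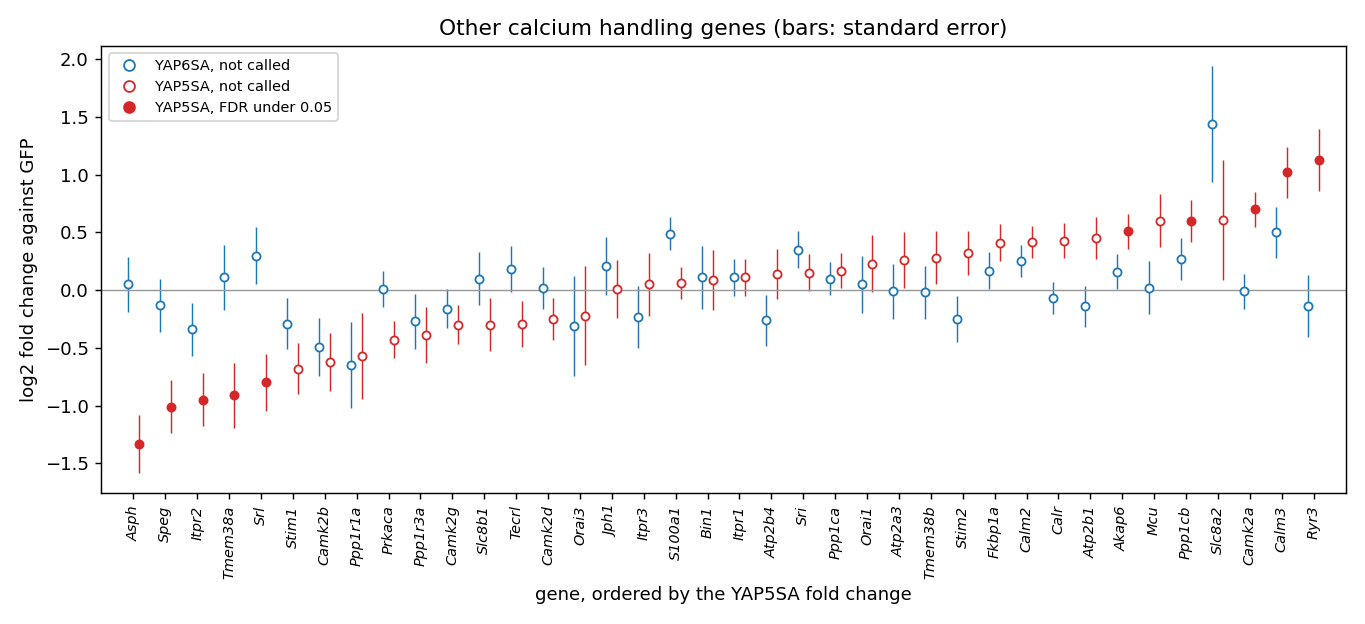
Log2 fold change against GFP of the other calcium handling genes that were tested, 1 of the 39 left out, with the standard error, in YAP6SA (blue) and YAP5SA (red), ordered by the YAP5SA value. Filled circles passed an FDR of 0.05: 5 genes above and 5 below 0 in YAP5SA, and no gene in YAP6SA. Both sets share the GFP libraries.

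*Jph1* and *Strit1*, relatives of the members or of the inhibitors among them, were read as well. *Jph1*, the junctophilin of skeletal muscle, was read at 8.62 to 12.3 CPM in the 6 libraries, with log2 fold changes of 0.21 in YAP6SA and 0.01 in YAP5SA against GFP (edgeR FDR 0.931 and 0.985). *Strit1*, the DWORF gene whose reading frame is shown above, had 42 and 24 counts in GFP, 14 and 6 in YAP6SA, and 19 and 2 in YAP5SA. All 4 libraries with a YAP variant were below both GFP libraries, at counts under the filter on low levels. In the fit with no such filter, its log2 fold change was -1.91 ± 0.82 (SE) in YAP6SA (FDR 0.77) and -1.84 ± 0.82 in YAP5SA (FDR 0.139), neither past the threshold.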

How the data were processed

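The authors aligned poly-A nuclear RNA reads to mm10 (Ensembl 94 annotation) in STAR and deposited raw counts per gene, neither normalized nor filtered. The version of STAR is not given in the sources used here. Of all reads in a library, 22.0% to 23.4% were in rows that name no gene (unmapped, mapped to several places, outside genes or ambiguous) and stayed out of library sizes and tests. Total gene counts were 14552847 to 19615627, and a count of 0 allows up to 3 counts, for counting error only.

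Genes with a median log2 CPM over 1 in at least 1 group were kept (13323 of 54532), as in the authors' methods. The quasi-likelihood fit of edgeR 4.0.16 (R 4.3.3, TMM) took all 6 libraries, with batch and group as terms, and p-values were adjusted over all genes kept. CPM values are counts over TMM library sizes, and values by batch are log2 ratios of CPM. Names, coordinates and exon lengths came from GENCODE M21, and *Strit1* was matched through a RefSeq synonym. The replicate number is the batch number in the labels, and the pairing of libraries rests on these labels. Deviations of libraries of a batch correlated across genes at 0.107 (GFP with YAP5SA) to 0.394 (GFP with YAP6SA). So few values, with no reference beside them, cannot show the pairing by themselves. The chi-square per degree of freedom between replicates was 27.7 to 43.6, so no library was a copy of another. The steps were tested on simulated data.

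Alternatives were RLE and upper quartile scaling, a filter of 10 counts in each library or none, the likelihood ratio test, DESeq2 1.42.0, limma-voom (3.58.1), no batch term, only the 4 libraries compared, each library left out in turn, and other gene lengths for ratios. Gene lengths cancel in a fold between groups and change only the ratio itself. The unshared length was added after the data were seen. All 10 members are named. Of the other calcium genes, *Ryr1*, *Atp2a1*, *Jph1* and *Strit1* were named whatever their values, together with those of the 12 past the threshold in any comparison, of which 1 is counted but not reported here. *S100a1*, *Slc8a2*, *Gm47644*, *Cep85l* and the markers outside that rule were named after their values were seen. The members and lists were chosen with earlier results of these data known.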

Additional observations from a re-analysis of the deposited data

How the results depend on the processing

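Over 9 fits of all libraries or of the 4 compared, *Pln*, *Casq1* and *Hrc* passed in 9 for YAP5SA against GFP and against YAP6SA, and *Ryr2* in 7. The replicate block was the batch term. With no replicate block, 3 members passed in YAP5SA against YAP6SA, and of the other calcium genes 6 passed in YAP5SA against GFP and 3 against YAP6SA, beside 15.7% and 8.65% of all genes. With only the 4 libraries compared, 1 member (*Trdn*) and 1 other gene passed in YAP6SA against GFP, beside 2.07% of all genes. The joint test called 7 members with no filter, 6 with the likelihood ratio test or DESeq2 and 5 with limma-voom. For this test, the share of all genes called was counted only in the main fit (17.6%). Its counts of members in the other fits, those without a library included, therefore have no share of all genes beside them. They cannot show a change particular to the calcium genes. The cause of the differences between fits was not tested.

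With each library left out in turn, the lone library of its group being taken to vary like the others, 0 to 1 members passed in YAP6SA against GFP, 0 (without GFP replicate 2) to 6 (without YAP5SA replicate 1) in YAP5SA against GFP, 1 (without YAP6SA replicate 2) to 8 (without YAP5SA replicate 1) between the variants, and 3 to 7 in the joint test. Of the other calcium genes, 0 to 19 passed against GFP and 0 to 16 between the variants, lowest and highest without the same libraries. Over all genes, 5.54% and 36.5% passed against GFP without GFP replicate 2 and YAP5SA replicate 1, and 2.97% and 31.2% between the variants without YAP6SA replicate 2 and YAP5SA replicate 1. Against GFP, small YAP6SA log2 fold changes crossed 0: *Ryr2* -0.31 to 0.43, *Atp2a2* -0.22 to 0.36, *Pln* -0.28 to 0.17, *Sln* -0.41 to 0.25, *Casq1* -0.69 to 0.39, *Casq2* -0.20 to 0.28, *Jph2* -0.44 to 0.64, *Slc8a1* -0.02 to 0.07 and *Hrc* -0.13 to 0.38. So did YAP5SA values of *Trdn* (-0.13 to 0.16), *Jph2* (-0.72 to 0.36) and *Jph1* (-0.02 to 0.06) against GFP, and of *Jph2* (-0.65 to 0.05) against YAP6SA. Each member had at least 226 counts in every library.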
